A study of Oncorhynchus mykiss with 6 samples.

Results

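Group 4a of the deposited small RNA table holds predicted miRNA candidates. By the authors' definition these are liver reads with no match among the fish miRNAs of miRBase. They mapped to the rainbow trout genome at a site whose flanks were predicted to fold into a hairpin. The 159 members described here were selected on their read counts, as the rows of Group 4a whose expected counts summed to at least 10 over the 6 libraries, out of 458 rows of Group 4a and 1389 sequences in the table. Their summed count and level over the 6 libraries are therefore a description and were given no test. The share of library counts that they held was compared between SS and SD fish. That comparison used the counts that selected them, so it is a description as well. The libraries came from livers of wild type juvenile rainbow trout, Oncorhynchus mykiss (strain given as Walbaum), 3 socially subordinate (SS) fish labelled 4A, 6A and 1B and 3 socially dominant (SD) fish labelled 4B, 6B and 21A, each sampled after 4 d of interaction with a partner, with 1 library per fish. SS fish in effect fasted while SD fish took the food, and plasma cortisol was higher in SS fish, so status, feeding and cortisol cannot be told apart. In whole liver, fewer cells of a type and less RNA per cell cannot be told apart either.

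Most miRNAs are cut from the stem of a hairpin transcript by Drosha and Dicer. Either side of the stem can give a mature strand. The 5p strand comes from the side nearer the 5′ end and the 3p strand from the other. The mature strand is loaded into an Argonaute protein and finds target transcripts chiefly through its seed, the bases counted from the second to the eighth. A prediction from reads and folding alone does not show that a sequence is made by this pathway, since breakdown products of other RNAs can also map to sites that fold. The PC names give the predicted arm, PC-5p or PC-3p, and no genomic position was assigned to the members here.

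The members that the results turn on are shown first, 5′ to 3′, with the seed (bases 2 to 8) in capitals. They are the 12 of highest mean level, then the members that separated SS from SD fish at an unadjusted p under 0.05 and those absent from at least 1 library and present with 30 or more reads in another.
PC-5p-417_3416: cCCTCGATccaagcttttgt
PC-5p-1634_500: tGGAGTGTgacaatggaaa
PC-5p-1980_394: gAGTAAATggaaaggtctga
PC-3p-2728_260: tCATTCCAttccattgattccg
PC-3p-14213_29: tCCCTCAGgatagctggcgctcgaagtct
PC-5p-1827_437: tAGCAGCAcatcattactggta
PC-3p-1796_444: tATAGAATactgtagtatgtac
PC-3p-1915_413: gTTCTATActggtcatctctct
PC-3p-2358_312: cTGTACAAgccactgccttgct
PC-3p-4500_138: cAGGGTTCaagtccctgttcgggcgcca
PC-5p-6210_90: tGTCCAATgattagaactctatt
PC-5p-3108_221: tTGGAGGAttgagaaggtgtagcagctt
PC-3p-2861_245: aAGACACTgtaaaactagg
PC-3p-20448_18: cTGTGTGCacaatcctgggcctgcata
PC-5p-5458_106: aCCGGCTGgaacgtcaactgcgcc
PC-3p-4337_144: tTAGCCTGccatgttgtgaatc
PC-5p-5035_118: aTAGCACTcttgatgatcaact
PC-5p-11945_37: tACCCTTGgtacagtactgaat
PC-3p-8220_61: tTTGTCTAtactgtactgtact

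The members were for the most part of miRNA length, with larger shares of short and of long sequences than the known miRNAs of Group 1 had. Of the 159, 77 were PC-5p and 82 were PC-3p. The lengths ranged from 16 to 32 nt, which spans most of the 15 to 32 nt window that the authors kept, with a median of 22 nt in each arm. Lengths of 21 to 23 nt were found in 120 members (75.5%), against 286 of 328 Group 1 sequences with at least 10 reads (87.2%), Group 1 being the sequences that the authors listed as known miRNAs. Groups 2 and 3, which match a fish miRNA whose miRBase gene was not found in the trout genome, had 78 of 131 (59.5%). Members longer than 24 nt numbered 15 (9.43%), against 7 in Group 1 (2.13%), and 10 members were shorter than 20 nt (6.29%), against 7 in Group 1 (2.13%). The first base was T in 84 members (52.8%) and in 154 Group 1 sequences (47.0%), and the median GC content was 43.5% in members and 45.0% in Group 1. The arms were alike in these features: 56 of 77 PC-5p and 64 of 82 PC-3p members had 21 to 23 nt, and 43 and 41 opened with T.

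**Figure D1:**
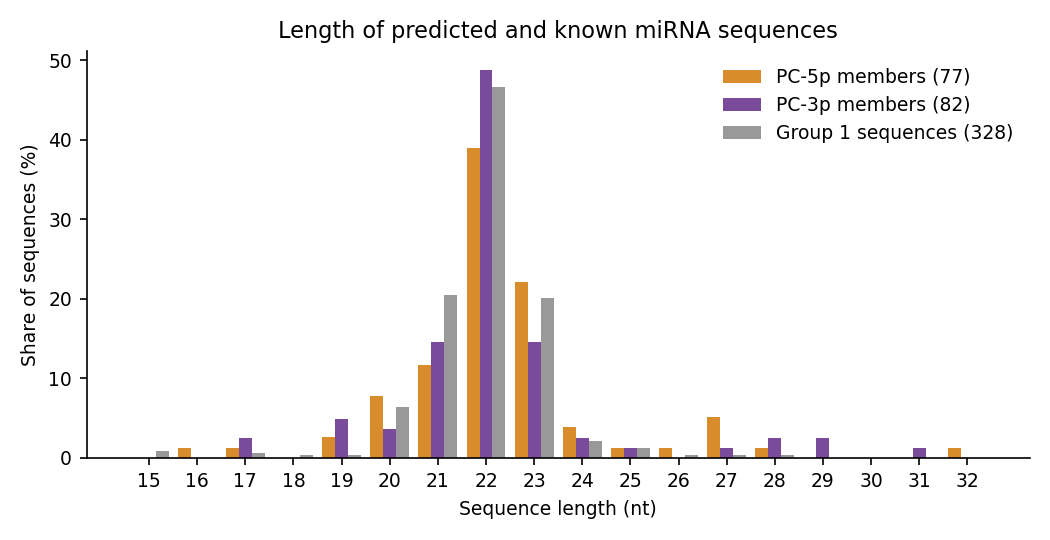
Share of sequences (%) at each length (nt) for the 77 PC-5p members, the 82 PC-3p members and the 328 Group 1 sequences with at least 10 reads. Each set peaks at 22 nt, and the members have more sequences above 24 nt (15 of 159) than Group 1 (7 of 328).

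Most members were rare. The median summed count was 30 reads per member, against 377.9 in Group 1 and 39.5 in Groups 2 and 3 under the same threshold, and 58 members had fewer than 20 reads. Only 37 reached 100 reads. At the threshold of 10, the members PC-3p-19223_20, PC-3p-29991_10 and PC-3p-31773_10 each summed to 10 reads, and the rows just outside it, PC-3p-19614_19, PC-3p-25716_13 and PC-3p-34549_9, summed to 9.5, 9.0 and 9.0. Reads in all 6 libraries were found for 99 members (62.3%), against 297 Group 1 sequences (90.5%), and no member was limited to 1 library. A count of 0 allows up to 3 reads in that library, counting error only.

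A single sequence dominated the summed counts. PC-5p-417_3416, of 20 nt, took 13917 of the 28969 reads of all members (48.0%), the 12 members of highest level took 71.7% and 50 members took 91.0%. Through it the PC-5p arm held 21147 reads and the PC-3p arm 7822. PC-5p-417_3416 had 10501, 1611 and 242 reads in SS fish 4A, 6A and 1B, against 358, 385 and 820 reads in SD fish 4B, 6B and 21A. Divided by the authors' library size parameter, which gives the normalized reads used as level from here on, these came to 8519.9, 2321 and 230.1 in SS fish, against 455, 471 and 462 in SD fish. The 3 SD fish lay within 1.03-fold of each other while the SS fish spanned 37.0-fold, with 4A and 6A above every SD fish and 1B below them. Its log2 fold change, here and throughout SS over SD, was 2.98 ± 1.21 (SE; edgeR adjusted p = 0.448). Without SS replicate 1B it was 3.54 with an adjusted p of 0.0278 in edgeR (0.562% of all sequences tested were then called higher in SS), so leaving out 1 fish moved the most abundant member past the threshold.

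Among the other abundant members, none separated the groups. PC-5p-1634_500, which opens like miR-122, had 255, 134 and 145 normalized reads in SS fish, against 67.3, 132 and 156 in SD fish. PC-3p-2728_260 had 129.8, 128 and 238 in SS fish, against 139.8, 117 and 103 in SD fish. PC-5p-1980_394 had 116, 269 and 103 in SS fish, against 88.95, 222 and 63.7 in SD fish. In each of these the groups overlapped, and the last was highest in fish 6A among SS and in fish 6B among SD fish. PC-5p-1827_437 averaged 109 ± 19.1 in SS fish and 120.1 ± 40.96 in SD fish (SD, n = 3 each), PC-3p-1796_444 102 ± 32.9 in SS fish and 86.7 ± 28.5 in SD fish (SD, n = 3 each) and PC-5p-3108_221 53.3 ± 5.79 in SS fish and 60.8 ± 18.8 in SD fish (SD, n = 3 each). PC-3p-1915_413 was the most even of the 12 among SS fish, at 90.9, 83.6 and 82.7 normalized reads, against 91.5, 62.3 and 59.8 in SD fish. For these 7 members edgeR gave log2 fold changes from -0.21 to 0.57 and adjusted p from 0.596 to 0.871.

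**Figure D2:**
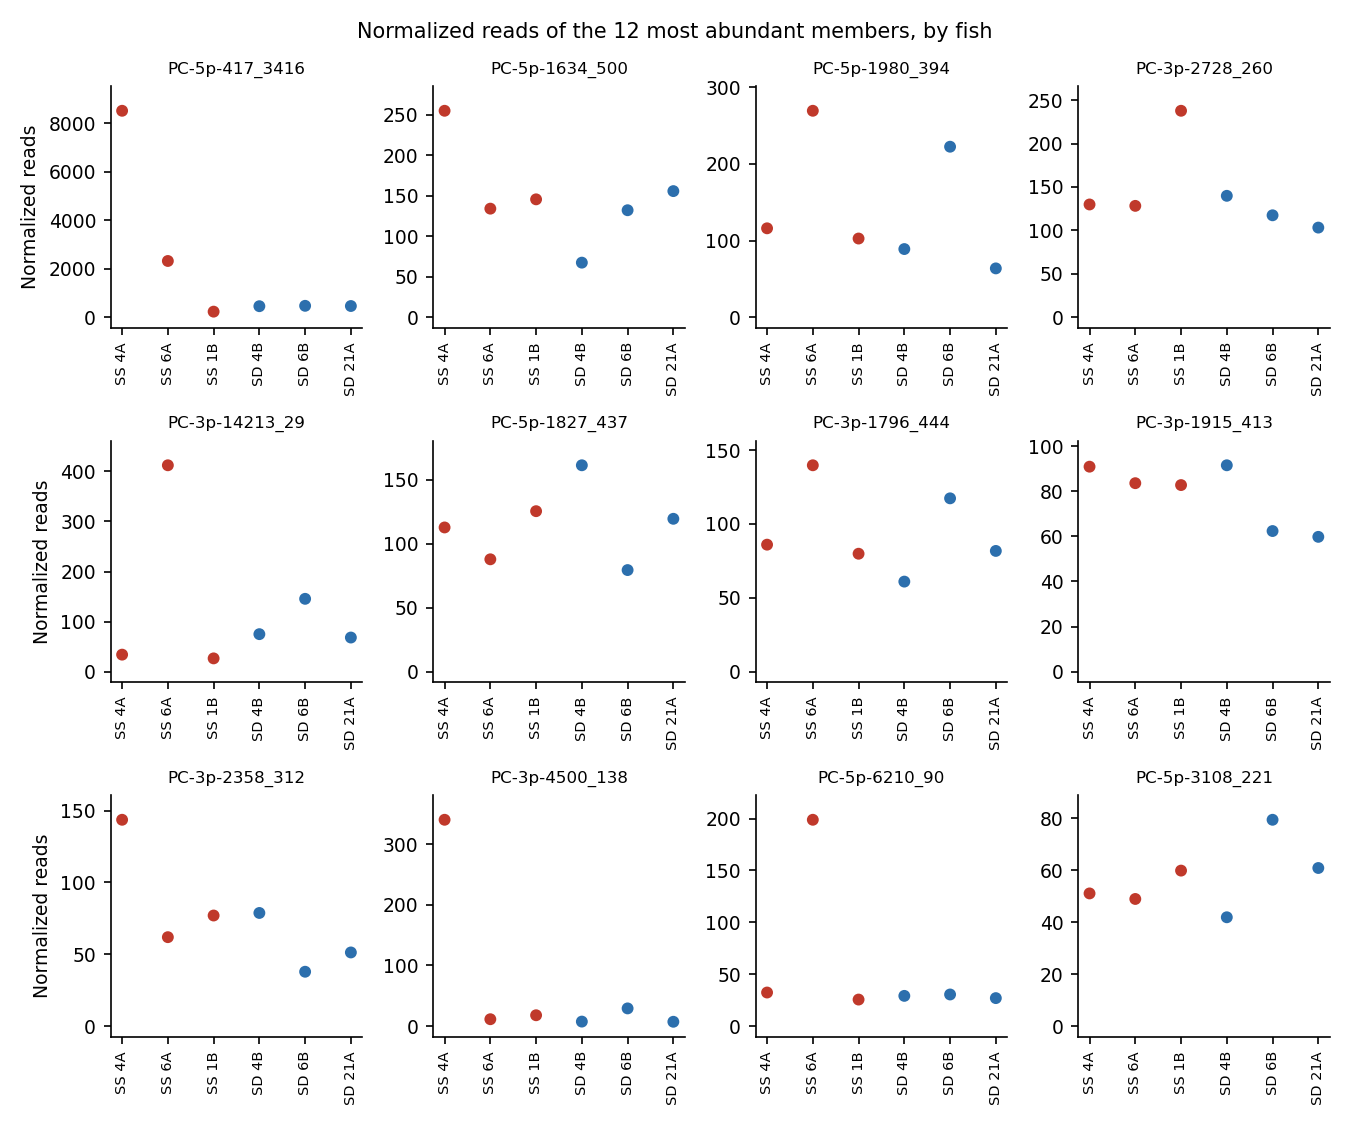
Normalized reads (counts over the authors' library size parameter) of the 12 members of highest mean level, 1 panel each with its own axis from 0, 1 point per fish, SS fish in red and SD fish in blue. In PC-5p-417_3416, PC-3p-14213_29, PC-3p-4500_138 and PC-5p-6210_90, 1 SS fish stands far above the other SS fish, and in no panel do all SS fish lie on 1 side of all SD fish.

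As a share of all counts in the table, the members took more in SS than in SD fish, with overlap between the groups. The share was 0.647%, 0.264% and 0.164% in SS fish 4A, 6A and 1B, against 0.165%, 0.149% and 0.123% in SD fish 4B, 6B and 21A, or 0.358 ± 0.255% in SS fish and 0.146 ± 0.0211% in SD fish (SD, n = 3 each; two-sided exact permutation test, p = 0.2). Exact (Clopper-Pearson) 95% intervals, which cover counting error only, reached at most 0.0108 percentage points from these values. Without PC-5p-417_3416 the share was 0.160%, 0.155% and 0.150% in SS fish, against 0.135%, 0.123% and 0.0988% in SD fish, with every SS fish above every SD fish (exact permutation test, p = 0.1, the smallest that 3 fish against 3 allow). Set against mappable reads instead, the share of all members averaged 0.158 ± 0.122% in SS fish and 0.0732 ± 0.00655% in SD fish (SD, n = 3 each), with every SS fish above every SD fish (exact permutation test, p = 0.1). On that basis the share without PC-5p-417_3416 averaged 0.0680 ± 0.0136% in SS fish and 0.0597 ± 0.00554% in SD fish (SD, n = 3 each), and the groups overlapped (exact permutation test, p = 0.4). All these shares sum the counts on which the members were selected, so they remain a description.

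**Figure D3:**
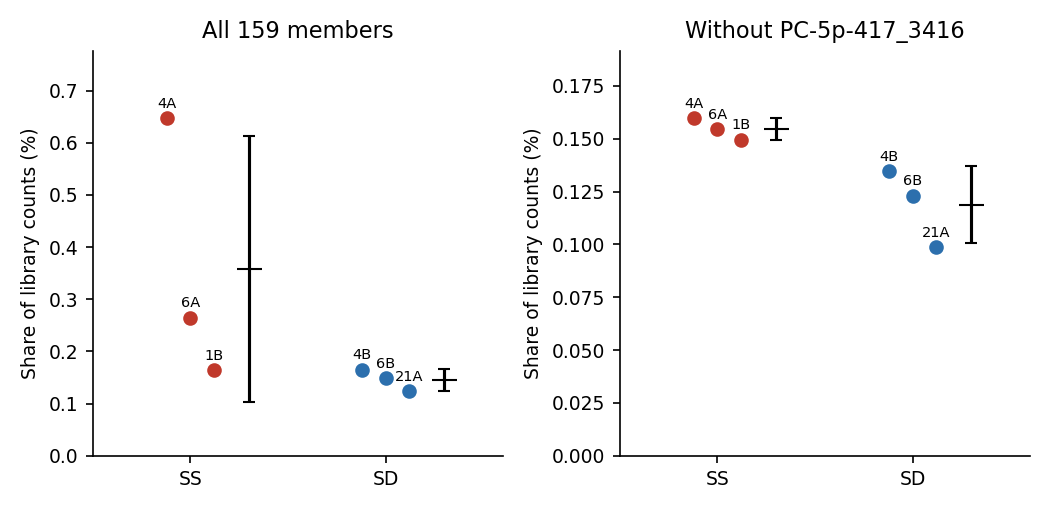
Share of each library's table counts (%) held by the members, 1 point per fish with its label, SS left of SD, and beside each group the mean with the SD as bar (n = 3). With all 159 members the SS fish run from 0.164% to 0.647%, and without PC-5p-417_3416 the 3 SS fish lie between 0.150% and 0.160%, above the SD fish.

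The comparison of SS with SD fish was fitted in edgeR on all sequences that passed its filter on low counts, 338 of which 47 were members, so 112 of the 159 members could not be tested there. No member had an adjusted p under 0.05 (edgeR quasi-likelihood test, Benjamini-Hochberg adjustment over the 338), where 0.592% of all tested sequences did. By DESeq2 1 member did, PC-3p-2861_245, where 2.07% of the sequences were called higher in SS. At an unadjusted p under 0.05, edgeR had 2 members higher in SS fish (4.26% of the 47), against 6.51% of all tested sequences, and 0 members lower, against 4.14%. The members' shares were thus below the background in both directions at this threshold, and they are not a result about the members. Of the 47, 29 had a log2 fold change above 0 and the median was 0.31, against -0.02 over all 338. With limma-voom the median over the same 47 was -0.07, so its sign depended on the method. The median biological coefficient of variation from edgeR was 0.432 in members. It was 0.375 in 49 tested sequences of Groups 2 and 3 and 0.343 in 242 tested Group 1 sequences. Median levels were 3.84 log2 CPM (counts scaled to library size) in members, 4.47 in Groups 2 and 3 and 6.58 in Group 1. The spread was not compared at equal level.

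**Figure D4:**
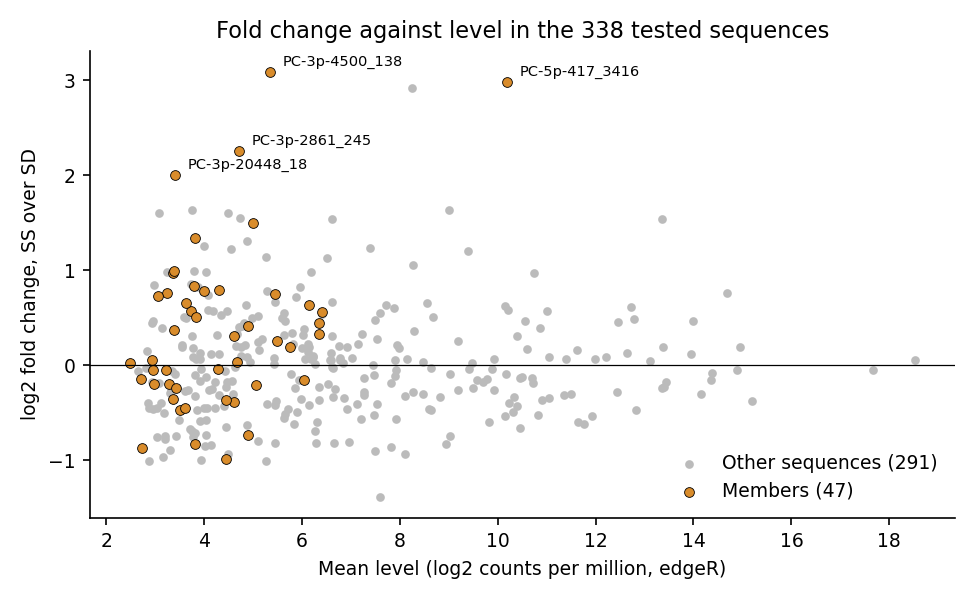
log2 fold change (SS over SD) against mean level (log2 CPM) in the edgeR fit, 1 point per tested sequence, with 47 members in orange and 291 other sequences in grey. The members lie mostly at low levels, and the 4 members labelled by name lie highest among members, at log2 fold changes of 2.01 to 3.09, none with an adjusted p under 0.05.

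PC-3p-2861_245 and PC-3p-20448_18 were the tested members whose groups did not overlap at an unadjusted p under 0.05. PC-3p-2861_245, of 19 nt, had 72.2, 27.4 and 119.8 normalized reads in SS fish, against 10.2, 20.8 and 14.7 in SD fish. The log2 fold change was 2.25 ± 0.59 (SE; edgeR adjusted p = 0.266). Every SS fish was above every SD fish, with 6A closest to the SD range. Its adjusted p was 0.0123 in DESeq2, 0.000479 in edgeR without a filter on low counts and 0.0137 without SS replicate 6A, and it ranged up to 0.608 over the alternatives. PC-3p-20448_18, of 27 nt, had 24.3, 17.3 and 38.98 normalized reads in SS fish, against 7.62, 9.78 and 3.38 in SD fish. For PC-3p-20448_18 the log2 fold change was 2.01 ± 0.54 (SE; edgeR adjusted p = 0.266). Here too all SS fish were above all SD fish, on 6 to 41 reads per library, and without the filter its adjusted p was 0.0329, within a range of 0.0329 to 0.608. PC-3p-20448_18 passed the filter on low counts through the SS fish alone, with fewer than 10 reads in each SD library. The filter thus favoured a difference, and its p in the filtered fit is no support for one between the groups. Neither shared its seed with a Group 1 sequence or with another member.

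When every sequence with at least 10 reads was tested, all 159 members among 618, edgeR again gave 0 members an adjusted p under 0.05, where 0.485% of all did. At an unadjusted p under 0.05 it had 14 members higher in SS (8.81%), against 7.77% of all, and 2 members lower (1.26%), against 2.27% of all. Of the 14, 7 were PC-5p and 7 PC-3p, and both members lower in SS were PC-5p. Every SS fish was above every SD fish in 11 members (6.92%), where 9.55% of the 618 did so, and below in 6 members (3.77%), where 7.28% did so. The member of lowest p, named here for that rank, was PC-3p-15035_27, with 9, 7 and 7 reads in SS fish, against 1, 1 and 2 in SD fish, and a log2 fold change of 2.68 ± 0.59 (SE; edgeR adjusted p = 0.136). The lower member of lowest p was PC-5p-20913_17, with 1, 2 and 1 reads in SS fish, against 9, 7 and 15 in SD fish, and a log2 fold change of -2.61 ± 0.62 (SE; edgeR adjusted p = 0.172). Both rest on at most 15 reads in any library. Each reached the threshold of 10 reads only through the group in which it was high, so its p is no support for a difference between the groups.

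Several members were present or absent fish by fish, across the status groups. PC-3p-4337_144, of 22 nt, had 117, 0 and 92 reads in SS fish, against 0, 0 and 0 in SD fish, so that it was found in SS fish 4A and 1B alone. PC-5p-5458_106 had 122, 0 and 29 reads in SS fish, against 0, 0 and 216 in SD fish, present in 2 SS fish and 1 SD fish. PC-5p-5035_118 had 65, 0 and 29 in SS fish, against 11.5, 20 and 32 in SD fish, absent from 6A only. Each of these lacked reads in SS fish 6A, and none of them separated the groups. PC-5p-11945_37, of 22 nt, had 7, 47 and 38 reads in SS fish, against 1, 0 and 7 in SD fish. PC-3p-8220_61 had 7, 0 and 0 in SS fish, against 11, 0 and 43 in SD fish. After division by the library size parameter, every SS fish was above every SD fish in PC-5p-11945_37, at 5.68, 67.7 and 36.1 normalized reads in SS fish, against 1.27, 0 and 3.95 in SD fish, while PC-3p-8220_61 overlapped.

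The calls on such members changed with the fish that were left out and with the filter on low counts. Without SS replicate 6A, edgeR gave an adjusted p under 0.05 to 4 of 54 members, all higher in SS, where 2.49% of all tested sequences were called in that direction: PC-3p-4337_144 (adjusted p = 0.000626), PC-5p-7305_73 (adjusted p = 0.0130), PC-3p-2861_245 (adjusted p = 0.0137) and PC-3p-18356_21 (adjusted p = 0.0452). These had more reads in SS fish 4A and 1B than in the other libraries, for PC-5p-7305_73 45, 3 and 56 in SS fish, against 1, 4 and 11 in SD fish, and for PC-3p-18356_21 20, 0 and 14 in SS fish, against 1, 0 and 3 in SD fish. Without SS replicate 4A the called member was PC-5p-11945_37 (log2 fold change 4.50, adjusted p = 0.0301 in edgeR), where 0.85% of the sequences were called higher in SS. Of these 5 members only PC-3p-2861_245 passed the filter with all fish. The other 4 passed it once an SS fish in which they were low was left out, through the 2 SS fish in which they were high, so the filter favoured a difference and their calls are no support for one between the groups. With all fish and no filter, edgeR called 6 of 159 members higher in SS (3.77%), where 1.09% of 1283 sequences were. The 1283 include sequences with fewer than 10 reads, which the rule for members leaves out, so the shares are not of like sets. The members called in edgeR were PC-5p-11945_37 (adjusted p = 5.4e-06), PC-5p-7305_73 and PC-3p-2861_245 (both 0.000479), PC-3p-18356_21 (0.0111), PC-5p-9821_48 (0.0199) and PC-3p-20448_18 (0.0329). PC-3p-4337_144 was not called, and with a summed count of at least 10 edgeR called 0 of the 159. PC-5p-11945_37 and PC-3p-18356_21 each had fewer than 10 reads over the SD fish. They are members only through the SS fish, so these calls on them are no support for a difference either.

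**Figure D5:**
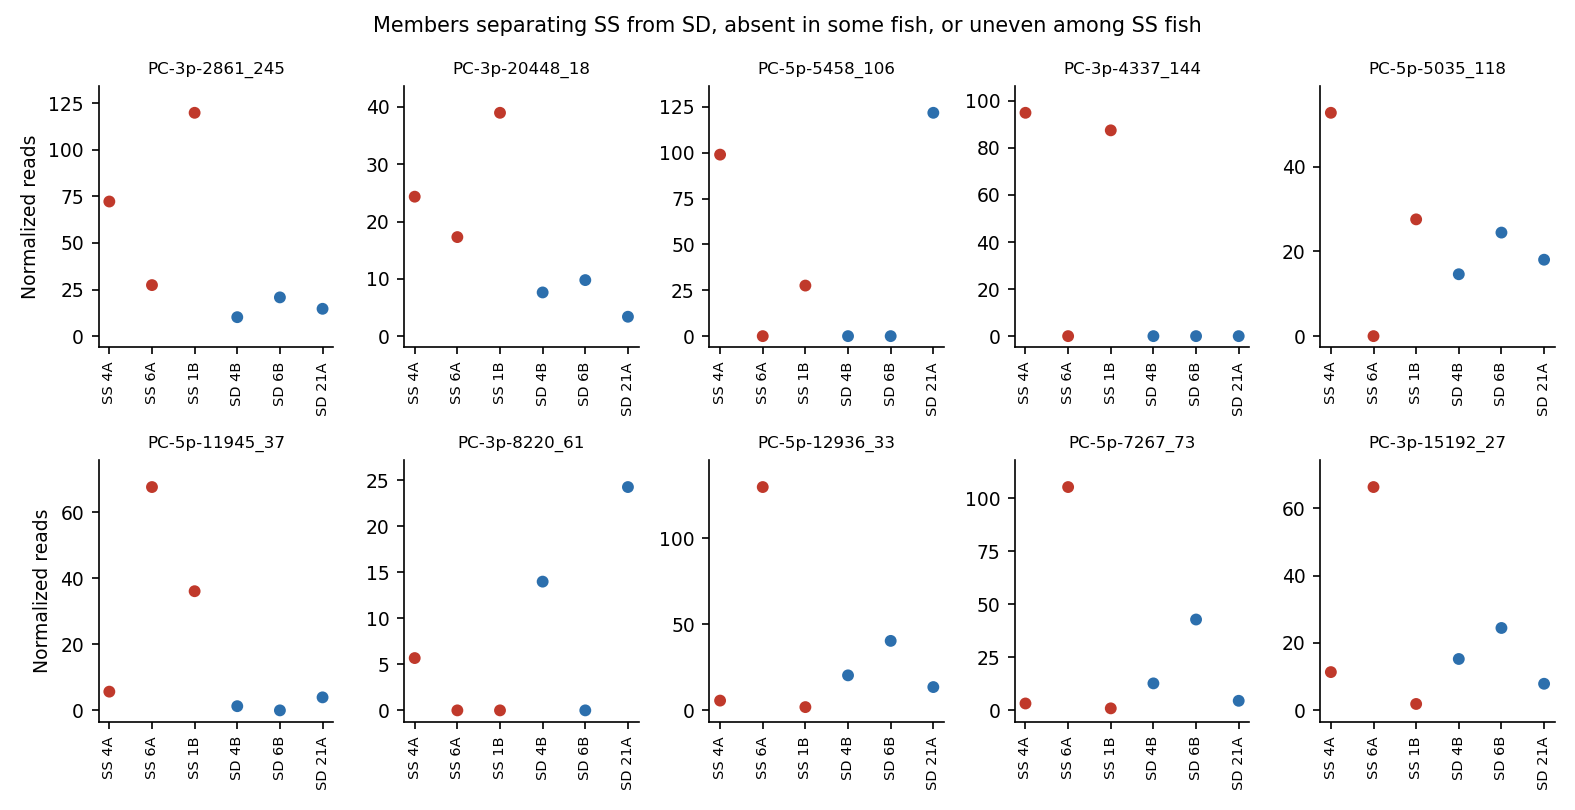
Normalized reads by fish for the 2 members that separated SS from SD fish at an unadjusted p under 0.05 (first 2 panels), the 5 members with no reads in at least 1 library and 30 or more in another (next 5) and 3 members uneven among SS fish (last 3), each panel with its own axis, SS in red and SD in blue. PC-3p-4337_144 is at 0 in SS fish 6A and in all 3 SD fish, and the last 3 members are highest in SS fish 6A.

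A second group of members was high in SS fish 6A. Among the 66 members with at least 40 reads, the highest fish was at least 2-fold over the next in 15 (22.7%), a limit chosen after the values were seen. The share was 8.84% of 396 such sequences in the whole table, 6.42% of 265 in Group 1 and 4.62% of 65 in Groups 2 and 3. These lists were not compared at equal level. In 8 of the 15 members that fish was 6A, against 12 of 35 in the whole table, members included, and 2 of 17 in Group 1. Of these 8 members, 7 were outside 21 to 23 nt, with lengths of 16 to 31 nt, and the lengths were not counted for the other lists. Whether these sequences are miRNAs or fragments of another RNA, such as ribosomal RNA, was not tested, so their levels are those of the sequences alone. Sequences of this set of up to 30 nt are shown in lower case because no part of them was singled out.
PC-5p-7267_73: tctagtagctggttcc
PC-5p-9821_48: ttgtctgagggtcgctt
PC-3p-15192_27: caccggcgaactgagagcg
PC-5p-12936_33: cacgatccttctgactttttgggt
PC-5p-12014_37: tgcagatgatgagttatgagaatatct
PC-3p-14213_29: tccctcaggatagctggcgctcgaagtct
PC-5p-6210_90: tgtccaatgattagaactctatt
PC-5p-7267_73, the shortest member, had 3.25, 105 and 0.951 normalized reads in SS fish, against 12.7, 42.8 and 4.51 in SD fish, and its 110.6-fold span in SS was the widest within a group among tested members with reads in every fish of that group. PC-5p-12936_33 had 5.68, 129.7 and 1.90 in SS fish, against 20.3, 40.3 and 13.5 in SD fish. PC-3p-15192_27 had 11.4, 66.3 and 1.90 in SS fish, against 15.2, 24.5 and 7.89 in SD fish. In each of these, 6A was highest, SD fish 6B came next and SS fish 1B was lowest. PC-3p-14213_29 had 34.1, 412 and 26.6 in SS fish, against 74.97, 145 and 68.2 in SD fish, in the same order at both ends. Without SS replicate 6A the log2 fold changes of these members ran from -3.10 to -1.18, where with all fish they ran from 0.64 to 0.80, and no adjusted p in edgeR was under 0.05 either way. PC-5p-6210_90 differed from them in that the 5 fish other than 6A lay close together, with 32.5, 199 and 25.7 in SS fish, against 29.2, 30.6 and 27.1 in SD fish.

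PC-3p-4500_138, of 28 nt, was high in SS fish 4A alone, at 340.0, 11.5 and 18.1 normalized reads in SS fish, against 7.62, 29.3 and 7.33 in SD fish. Its log2 fold change was 3.09 ± 1.48 (SE; edgeR adjusted p = 0.47), the largest among tested members, and the groups overlapped. It ends in CCA, as 2 members (1.26%) and 1.15% of all 1389 sequences do, and it holds GTTCNANNC, read on the given strand, a motif picked after the sequences were seen. The motif occurred in 3 members (1.89%), the others being PC-3p-1915_413 and PC-3p-29128_11, in none of the other 459 sequences with at least 10 reads and in 0.360% of all sequences. Those letters occur in the B box, an internal promoter element of transfer RNA genes, and a match is a description only.

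Not all members were far from named miRNAs. Distance was counted as the fewest edits (a base substituted, gained or lost) that turn the shorter sequence into a stretch of the longer one, against all sequences of Groups 1 to 3 of at least 17 nt in the same table. It was 0 for 10 members and 1 for 9 more, while 124 were 5 or 6 edits away, so that predicted candidates included sequences close to named miRNAs. The members below are shown with the shared part in capitals, each above the listed sequence it resembles.
PC-5p-1634_500: TGGAGTGTGACAATGGaaa
dre-miR-122_R-1: TGGAGTGTGACAATGGtgttt
PC-5p-8801_56: TGGAGTGTGACAtggtgttt
dre-miR-122_R-1: TGGAGTGTGACAatggtgttt
PC-5p-11337_40: cgtggTGAGGTAGTAGGTTGTATAGTT
dre-let-7a: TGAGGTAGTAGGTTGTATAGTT
PC-5p-4838_125: AAACCGTTACCATTACTGAGTtttagc
dre-miR-451_R-1: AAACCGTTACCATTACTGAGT
PC-3p-4072_155: tTTTAGCAATGGTAAGGGTTCT
dre-mir-451-p3_1ss6TC: TTTAGCAATGGTAAGGGTTCT
PC-3p-4390_142: CAATGTTCCTGCAGTGCAAGAt
ssa-miR-33b-3p: CAATGTTCCTGCAGTGCAAGA
PC-3p-2187_348: CAATGTGTCTGCAGTGCAGTAt
ssa-miR-33a-3p: CAATGTGTCTGCAGTGCAGTA
PC-5p-1827_437: TAGCAGCACATCATTACTGGta
ccr-mir-457a-p5_2ss14AT17TC: TAGCAGCACATCATTACTGG
PC-3p-5110_115: GCTGTGTGAGGTCGGACCTATCt
dre-miR-2188-3p_L+1_2ss13TC14AG: GCTGTGTGAGGTCGGACCTATC
PC-3p-10240_46: TTTCAGTAGGGTGTTTGCTGCt
ssa-miR-30b-3p_L-1: TTTCAGTAGGGTGTTTGCTGC
PC-3p-8341_60: ACCATCGACCGTTAAATGTACCt
ssa-miR-181a-1-3p: ACCATCGACCGTTAAATGTACC
PC-3p-21989_16: CCTGGATGTGGGTTCCGTCTcc
ssa-miR-462a-3p: CCTGGATGTGGGTTCCGTCT
PC-3p-47488_5: TAACACTGTCTGGTAAtgatgtca
fru-miR-200a_R-1: TAACACTGTCTGGTAAcgatg

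PC-5p-1634_500 and PC-5p-8801_56 open like miR-122, the most abundant miRNA of hepatocytes, and were the only members to share a seed with each other. The listed miR-122 sequence had 4270268 reads, so 997 and 69 reads are 0.0233% and 0.00162% of it. PC-5p-8801_56 had 21.1, 14.4 and 8.56 normalized reads in SS fish, against 5.08, 6.11 and 8.46 in SD fish. Its log2 fold change was 1.18 ± 0.49 (SE; edgeR adjusted p = 0.439 among the 618). Every SS fish was above every SD fish. The listed miR-122 sequence itself had 703234, 808996 and 570248 normalized reads in SS fish, against 594667, 699487 and 677816 in SD fish, which overlapped. PC-3p-15624_26, 1 edit from the same miR-122 sequence and named for that reason, had 9.74, 5.76 and 1.90 normalized reads in SS fish, against 1.27, 2.45 and 2.82 in SD fish. PC-5p-11337_40 holds the whole of let-7a, a miRNA family known for roles in developmental timing, behind 5 further bases at its 5′ end, and had 9, 8 and 3 reads in SS fish, against 9, 11 and 23 in SD fish, 0.0148% of the reads of let-7a. The 5 bases move its seed, which 1 listed let-7b form with the same extension shares.

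Both sides of the miR-451 hairpin, a miRNA of erythrocytes, appeared among the members. PC-5p-4838_125 extends miR-451 by 6 bases at the 3′ end and had 29.2, 10.8 and 32.8 normalized reads in SS fish, against 65.4, 36.1 and 43.4 in SD fish. The log2 fold change was -0.98 ± 0.48 (SE; edgeR adjusted p = 0.455). Every SS fish was below every SD fish. Listed miR-451 had 4585, 1017 and 2254 normalized reads in SS fish, against 4780, 2688 and 3790 in SD fish, so that 6A was lowest in both sequences and SD fish 4B highest. PC-3p-4072_155 holds the listed opposite strand with 1 base more at its 5′ end and had 32.05, 2.88 and 13.8 normalized reads in SS fish, against 38.8, 15.3 and 16.9 in SD fish, again lowest in 6A. The erythrocyte markers miR-144 and miR-451, both with reads, summed to 1822 to 7856 normalized reads in SS fish, against 4950 to 6719 in SD fish, lowest in 6A. Their part in these 2 members was not tested.

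For the members that extend other named miRNAs no adjusted p in edgeR was under 0.05. PC-3p-4390_142 and PC-3p-2187_348 add 1 base to miR-33b-3p and miR-33a-3p, of a family encoded within the genes of the sterol regulators SREBP in mammals. PC-3p-4390_142 had 46.2, 31.7 and 38.03 normalized reads in SS fish, against 125, 41.6 and 27.6 in SD fish. Listed miR-33b-3p had 402.4, 292.4 and 320.4 in SS fish, against 1235, 347.2 and 348.5 in SD fish, so SD fish 4B was highest by far in both. PC-3p-2187_348 averaged 32.6 ± 12.2 in SS fish and 41.2 ± 11.2 in SD fish (SD, n = 3 each). PC-5p-1827_437 holds a miR-457a sequence from the table and outnumbered it, with 736 reads against 71, and it shares its seed with 7 Group 1 sequences including miR-16. PC-3p-5110_115, a longer form of miR-2188-3p, had 22.7, 7.20 and 19.02 normalized reads in SS fish, against 22.9, 35.5 and 29.9 in SD fish. For PC-3p-5110_115 the log2 fold change was -0.83 ± 0.47 (SE; edgeR adjusted p = 0.523). Every SS fish was below every SD fish. PC-3p-10240_46, PC-3p-8341_60 and PC-3p-21989_16 extend miR-30b-3p, miR-181a-1-3p and miR-462a-3p and had 62, 43 and 30 reads. PC-3p-47488_5, which opens like miR-200a, had 12 reads. PC-3p-2358_312 shares the seed of let-7a-3p, 3 edits away, and was 1 edit from the listed sequence fru-let-7j-p3_2ss19TC20GC. It had 144, 61.9 and 77.01 normalized reads in SS fish, against 78.8, 37.9 and 51.3 in SD fish. Its log2 fold change was 0.75 ± 0.43 (SE; edgeR adjusted p = 0.523). Where a member holds the whole of a named miRNA, the authors' assignment decides which of them a read counts for, so the split between them is uncertain. In all, 16 members shared a seed with a Group 1 sequence.

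The arm in a name did not always match that of an overlapping member, as the pairs below show, with the shared bases in capitals.
PC-5p-11935_37: ggtgatGACGCGATGTGATTTCTGCC
PC-3p-58323_4: GACGCGATGTGATTTCTGCCcagtgctct
PC-3p-22571_16: AGTGACTCAGGATCATAGCCT
PC-5p-24318_14: gAGTGACTCAGGATCATAGCCT
The first pair overlaps by 20 bases and the other by 21, and in each 1 member is named PC-5p and the other PC-3p. PC-5p-11935_37 had 9, 24 and 9 reads in SS fish, against 16, 24 and 13 in SD fish, and PC-3p-58323_4 12 in all. PC-3p-22571_16 and PC-5p-24318_14 had 19 and 14 reads. The only pair with 14 or more consecutive bases in Watson-Crick or G-U pairing was PC-3p-8341_60 with PC-5p-36429_8, at 43 and 21 reads. Whether they come from 1 hairpin was not tested. The rule allows no mismatch and did not find PC-5p-4838_125 with PC-3p-4072_155, from the miR-451 hairpin. It therefore cannot show how many members face each other on a hairpin.

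Differences between single fish were spread unevenly over the libraries. SS fish 4A, 6A and 1B were the highest fish for 28, 44 and 22 members, and SD fish 4B, 6B and 21A for 27, 26 and 12. The highest fish was not counted over all sequences, so these numbers are not a result about the members. In 20 members (12.6%) 1 library held at least 50% of the reads, against 5.79% of Group 1 and 3.82% of Groups 2 and 3. In Group 4a sequences with fewer than 10 reads, where counts are lowest, the share was 56.2%. Of the 20 members, 8 were in SS fish 4A, 4 in 6A, 1 in 1B and 7 in SD fish 21A, the deepest library. This split by library was not counted over all sequences either. Table counts ranged from 1467701 to 2155318 in SS and from 1183289 to 3382970 in SD libraries. Of the marker lists for cell types, miR-122 was at 576193 to 813536 normalized reads in SS fish, against 597730 to 702931 in SD fish, and pancreas markers (3 of 3 miRNAs with reads) were at 153.1 to 606.9 in SS fish, highest in 4A, against 193.2 to 226.2 in SD fish. The other lists also overlapped: leukocyte markers were at 1833 to 2173 in SS fish, against 1585 to 2517 in SD fish, muscle at 168.8 to 179 in SS fish, against 114.2 to 303.7 in SD fish, and endothelium at 15357 to 26223 in SS fish, against 15920.3 to 19380.0 in SD fish. Stroma markers were at 75368 to 103299 in SS fish, against 81191 to 98419 in SD fish, epithelium at 1842 to 4269.7 in SS fish, against 2003 to 4542 in SD fish, and neuron at 82.1 to 150.5 in SS fish, against 109.0 to 167.6 in SD fish. Whether these differences bear on the members that were high in 4A was not tested.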

How the data were processed

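Small RNA libraries from 3 SS and 3 SD livers were analysed from the deposited tables. The authors removed the 3′ adapter, kept inserts of 15 to 32 nt, removed reads that matched repeats, mRNA or further RNA families, and compared the rest with the fish entries of miRBase release 21, allowing 1 mismatch in the first 16 nt. The submitters' processing notes name Bowtie 1.1.1. They assigned Group 4a after a hairpin prediction at the genomic site. The genome was the rainbow trout chromosome file of Genoscope. How the library size parameter was derived is not given in the sources used here. The deposited table holds expected counts, with shared reads split between sequences (19 of the 159 members have a fractional count), and a normalized signal, in which the authors divided each count by the library size parameter and wrote 0.001 for 0. In all 8334 values this division was checked. A deposited read summary holds counts of raw and mappable reads per library.

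Counts were rounded, filtered by filterByExpr (minimum count 10), scaled by TMM and compared by the quasi-likelihood test of edgeR 4.0.16 with robust estimation in R 4.3.3, with Benjamini-Hochberg adjustment over all sequences tested and a threshold of 0.05. The procedure was tested on simulated data. Sequences outside the main fit were simulated with the median dispersion of the tested ones, not with their own. Changes were given to sequences with at least 10 reads, and recovery was counted only among those that passed the filter in the simulated counts. Of tested members given a 2-fold, 4-fold or 8-fold change, 16.2%, 68.6% and 92.3% had an adjusted p under 0.05. These rates leave out members that fail the filter and may be too high for the rare ones. Over the 20 simulated sets, 219, 690 and 889 tested sequences with these changes were called, where the main fit called 2 of 338. The Benjamini-Hochberg adjustment is more lenient when many sequences change, so the rates may be too high for all members here. With no change, 6.60% of members and 4.22% of all sequences had an unadjusted p under 0.05. Changes of 2-fold in members would thus mostly be missed. Shares were compared by exact permutation tests (scipy, two-sided). With 1 library per fish, p-values measure the spread between these fish. Alternatives were DESeq2 1.42.0, limma 3.58.1, other scaling, filters and pseudocounts (1 and 10), unrounded counts, a replicate block, leaving out each library, and edgeR without robust estimation, the last chosen after seeing the data.

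The members, comparison lists and alternatives were chosen with earlier results of these data known. Members were named if they were among the 12 of highest mean level, past the adjusted threshold, past an unadjusted p of 0.05 with no overlap of the groups, at 0 in 1 library and 30 or more reads in another, among the 5 tested members with the widest range within a group (members at 0 in it left out), similar to a named miRNA (containing it, within it, with the same first 12 bases or with the same seed), overlapping or pairing with another member by 14 bases, or next to the threshold of 10 reads. Others are named where this is said. Marker lists for hepatocytes, neurons, blood cells (erythrocytes, leukocytes), pancreas, muscle, stroma, epithelium and endothelium were summed over normalized reads. Sequences were read from the deposited table.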

Additional observations from a re-analysis of the deposited data

How the results depend on the processing

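The count of members at an adjusted p under 0.05, 0 in each direction, became 1 higher in SS with DESeq2, 6 without the filter on low counts (159 members tested) and 0 to 4 with each library left out. The count at an unadjusted p under 0.05, 2 higher and 0 lower in SS, became 4 and 0 with DESeq2 and with edgeR without robust estimation (chosen after seeing the data), 15 and 2 without the filter, 14 and 2 with a summed count of at least 10, 2 and 1 with pseudocount 10, and 6 to 8 and 0 to 3 with each library left out, where 53 to 58 members were tested. Over all sequences tested, the shares higher and lower were 6.51% and 4.14% in the main fit. With a summed count of at least 10 they were 7.77% and 2.27%. For the other settings no such share was counted, so those counts are not a result about the members. With the label number as a replicate block the count at an unadjusted p under 0.05 was 2 higher and 1 lower, with 0 calls at the adjusted threshold. Only 2 numbers, 4 and 6, occur in both groups, and deviations of their fish correlated at 0.154 and 0.451, so the numbers were not shown to pair the fish. The differences in share kept their sign in every alternative, which is a description, since the shares sum the counts that selected the members. With a library left out they ran from 0.0686 to 0.310 percentage points for all members and from 0.0257 to 0.0437 without PC-5p-417_3416. Set against mappable reads they were 0.0847 for all members and 0.00823 without PC-5p-417_3416, where the groups overlapped.

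Of 459 alternative fold changes of 27 named and tested members, 414 kept direction and did not cross the threshold. A further 5 passed it, and 40 in 16 members turned direction, none of these 40 with an adjusted p under 0.05. DESeq2 gave no p for PC-3p-14213_29 and PC-3p-4500_138, which were counted among the 414 on direction alone. In limma-voom, and with pseudocounts 1 and 10, the log2 fold change was -0.43, -0.32 and -0.20 for PC-3p-14213_29, -1.04, -0.78 and -0.15 for PC-5p-12936_33, -0.63, -0.77 and -0.0042 for PC-5p-5035_118 and -0.75, -0.64 and -0.019 for PC-5p-7267_73. For PC-3p-15192_27 it was -0.31 in limma-voom and -0.20 with pseudocount 1. The replicate block gave -0.031 for PC-3p-2728_260 and -0.32 for PC-5p-5035_118, and no filter gave -0.088 for PC-5p-5458_106. With each library left out, the log2 fold change ranged from -0.21 to 1.05 for PC-5p-1980_394, -0.38 to 0.048 for PC-5p-1827_437, -1.67 to 1.18 for PC-3p-14213_29, -0.081 to 0.47 for PC-3p-1796_444, -0.47 to 0.024 for PC-5p-3108_221, -0.00056 to 1.93 for PC-5p-6210_90, -1.11 to 0.10 for PC-3p-4390_142, -2.63 to 1.40 for PC-5p-12936_33, -0.37 to 1.05 for PC-5p-5035_118, -3.10 to 2.03 for PC-5p-7267_73, -1.40 to 0.0095 for PC-3p-4072_155, -1.18 to 1.24 for PC-3p-15192_27, -1.21 to 0.24 for PC-5p-11935_37 and -0.50 to 0.33 for PC-3p-10240_46. For PC-5p-5458_106 it ranged from -1.56 to 8.30, the upper value resting on SD libraries at 0. The cause was not tested. A median of 30 reads per member limits all comparisons.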

Other observations

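The other 299 sequences of Group 4a had fewer than 10 reads over the 6 libraries. Only the fit without a filter on low counts and the share over all Group 4a rows took them into a comparison. They held 1268 reads in all, with a median of 4.0 reads each, and 8 of them had reads in all 6 libraries. Lengths of 21 to 23 nt made up 86.3% of them, 22 nt alone 50.2%, and 6 were longer than 24 nt.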
